A study of Homo sapiens with 8 samples.

Results

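Base excision repair replaces single damaged DNA bases, and 10 of its genes are described here in MDA-MB-231 cells with and without carboxymethyllysine (CML). The genes were OGG1, MUTYH, NTHL1, NEIL1, NEIL3, UNG, APEX1, XRCC1, PARP1 and POLB. They were taken by symbol for their known roles, and all 10 were found among the 17649 genes of the deposited table. The established human line MDA-MB-231 was derived from breast cancer and is labelled estrogen receptor negative. CML is an advanced glycation end product, a lysine modified through reaction with sugars. The study asked how CML alters the transcriptome of these cells. It compared 4 control libraries (PBS added) with 4 libraries labelled NCML from cells given 1 μM CML, and both groups were cultured for 48 hours at 5 mM glucose. All libraries came from this 1 cell line, so the values describe no other tumor or tissue, and p-values measure the spread between these cultures.

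In base excision repair, a DNA glycosylase recognises a damaged base and cuts it from the sugar, which leaves an abasic site. The endonuclease APEX1 cuts the strand at that site, PARP1 binds the resulting break and marks it with chains of ADP-ribose, and XRCC1 gathers the repair enzymes. DNA polymerase beta (POLB) then fills the gap and a ligase seals it. In the long-patch branch, polymerases and clamp proteins of DNA replication build a longer stretch and FEN1 removes the displaced flap. Oxidised bases such as 8-oxoguanine are the best known substrates of this pathway.

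The depth, estimated from the steps between values, was 16161627 to 18954814 reads per library, and 1 read was worth 0.0535 to 0.0622 CPM (reads of a gene scaled to a common library size). The 10 markers listed for this line were all in the table, with a summed level of 9732 to 10149 CPM in controls and 10067 to 10489 CPM with CML. The 11 luminal breast markers found in the table summed to 802 to 922 CPM in controls and 820 to 938 CPM with CML, nearly all of it the keratins KRT18, KRT19 and KRT8, while PGR and FOXA1 reached at most 0.114 and 0.0622 CPM. The 10 markers of immune, endothelial and fibroblast cells summed to 182 to 203 CPM and 173 to 195 CPM, mostly CD68 (152 to 181 CPM), with COL1A1 at no more than 13.3 CPM, PTPRC at most 0.650 CPM and DCN at most 0.0605 CPM. Across 12996 genes, the departure of a library from the gene means was correlated with GC content (Spearman's rho) at 0.496 in control 1, −0.531 in control 4 and −0.520 in CML 4. In the other 5 libraries rho was 0.124 to 0.221. Control 4 and CML 4 stood apart in one direction and control 1 in the other, and calls of repair genes that turn on them are given without them below. Their part in the other results was not tested.

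In control cells the 10 genes spanned a wide range of levels. Levels between genes were compared as CPM per kb of the longest annotated transcript. APEX1 was the highest at 144 ± 2.79 CPM per kb (SD, n = 4), followed by PARP1 at 23.2 ± 0.850, XRCC1 at 16.8 ± 0.847 and UNG, the uracil DNA glycosylase, at 8.56 ± 0.733. MUTYH at 6.02 ± 0.482, POLB at 5.65 ± 0.228 and OGG1 at 5.19 ± 0.335 lay close together. In that order, the ranges of MUTYH and POLB overlapped, as did those of POLB and OGG1, while the other neighbouring genes did not overlap. NTHL1 had 4.34 ± 0.254 CPM per kb, NEIL3 1.39 ± 0.205 and NEIL1 0.753 ± 0.121. The glycosylases for oxidised bases were thus measured at far lower levels than the endonuclease that follows them, with 5.19 CPM per kb for OGG1 against 144 for APEX1. When the length of all annotated exons together was used, APEX1 stayed first and NEIL3 and NEIL1 stayed last. On that scale XRCC1 (12.6 CPM per kb) ranked above PARP1 (5.02), and NTHL1 above POLB and OGG1. With CML, POLB and MUTYH exchanged places and the rest of the order was the same.

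**Figure D1:**
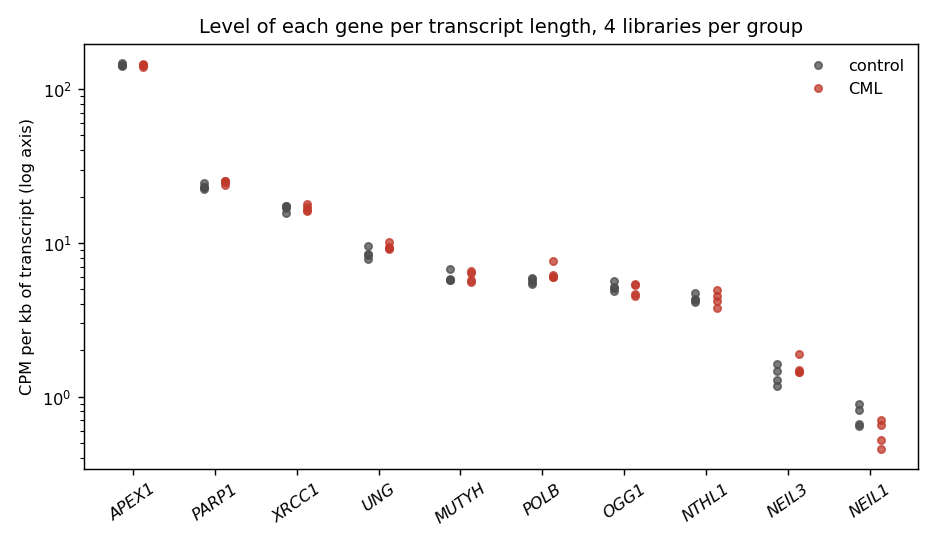
Level of the 10 genes in CPM per kb of the longest transcript on a log axis, with 1 point per library (4 control, 4 CML). APEX1 lies near 144 CPM per kb and NEIL1 below 1 CPM per kb in both groups.

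None of the 10 genes passed limma's test at a false discovery rate of 0.3, the threshold given in the study's legend, at which 158 genes, or 0.895% of all genes, passed. At an unadjusted p of 0.05, 1 of the 10 passed (PARP1), beside 7.66% of all genes. In limma's estimates 6 of the 10 were higher with CML and 4 lower, and their median log2 fold change was 0.0087, against 0.0066 over all genes and 0.0149 over the 13047 genes that averaged 1 CPM or more, as all 10 did. Across all genes 9445 were higher with CML and 7441 lower. By limma 0 genes passed at a false discovery rate of 0.05, and 1352 had an unadjusted p under 0.05.

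**Figure D2:**
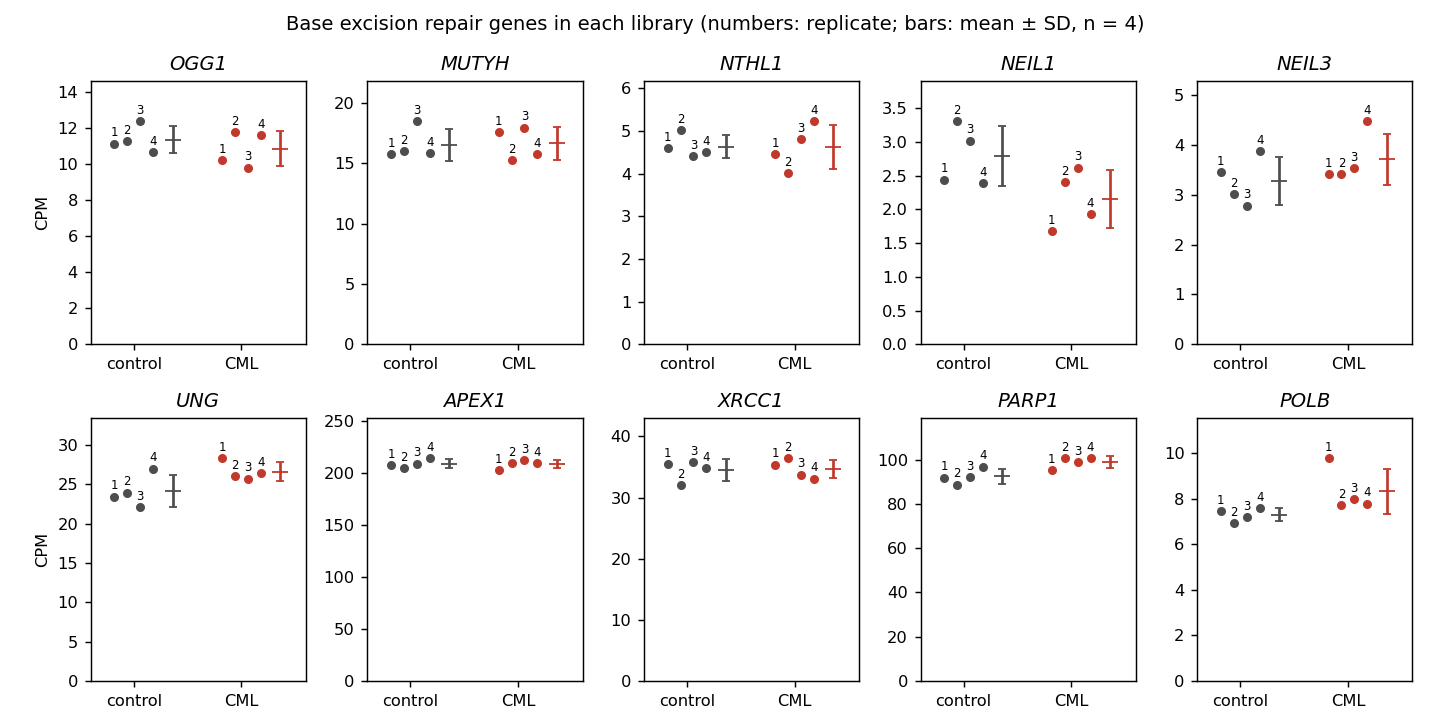
CPM of the 10 genes in each library (points numbered by replicate), with the mean and SD of 4 libraries beside them and each axis starting at 0. The groups overlap in every gene except POLB, whose lowest CML library (7.70 CPM) lies just above the highest control (7.58 CPM).

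Among the glycosylases for oxidised bases, OGG1, which cuts out 8-oxoguanine opposite cytosine, measured 11.2, 11.3, 12.4 and 10.7 CPM in controls 1 to 4. With CML it measured 10.2, 11.8, 9.81 and 11.6 CPM. The groups overlapped, with a log2 fold change of −0.06 (95% interval −0.24 to 0.11) and an adjusted p of 0.937. MUTYH removes adenine paired with 8-oxoguanine. Its controls measured 15.7, 16.0, 18.5 and 15.8 CPM, and its CML libraries 17.6, 15.2, 17.98 and 15.8 CPM. Its log2 fold change was 0.010 (95% interval −0.16 to 0.18, adjusted p 1), and the sign turned when libraries were centred on their medians (−0.0092) or quantile-normalised (−0.0035). NTHL1, which removes oxidised pyrimidines, measured 4.59, 5.03, 4.41 and 4.50 CPM in controls and 4.46, 4.01, 4.81 and 5.23 CPM with CML. The NTHL1 means were nearly equal, at 4.63 ± 0.271 CPM in controls and 4.63 ± 0.517 CPM with CML (log2 fold change −0.0048, 95% interval −0.19 to 0.18).

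The NEIL glycosylases also remove oxidised bases, and NEIL1 and NEIL3 were the least abundant of the 10 genes. NEIL1 measured 2.44, 3.31, 3.02 and 2.39 CPM in controls and 1.68, 2.41, 2.62 and 1.93 CPM with CML. All 4 CML libraries lay below the control mean of 2.79 ± 0.448 CPM, but only 2 lay below every control. Its log2 fold change of −0.27 (SE 0.125, 95% interval −0.56 to 0.03) was the largest in size among the 10 genes and did not pass limma's test (adjusted p 0.701), and the exact permutation p was 0.143. The pseudocount of 1 shrinks a gene this low, and with a pseudocount of 0.1 the value was −0.36 (adjusted p 0.733). NEIL1 rested on an estimated 29 to 56 reads per library, from which counting alone gives a coefficient of variation of 15.4%, against 16.0% observed in controls and 19.98% with CML. NEIL3, the form found mostly in dividing cells, measured 3.46, 3.02, 2.78 and 3.88 CPM in controls and 3.42, 3.42, 3.53 and 4.48 CPM with CML. The NEIL3 groups overlapped and only CML 4, one of the libraries that stood apart in GC content, lay above all controls. Its log2 fold change was 0.14 (95% interval −0.12 to 0.40, adjusted p 0.885), or 0.06 without CML 4.

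UNG removes uracil from DNA, both uracil incorporated in place of thymine during replication and uracil from deaminated cytosine. It measured 23.4, 23.9, 22.1 and 27.0 CPM in controls and 28.4, 26.0, 25.7 and 26.4 CPM with CML. All 4 CML libraries lay above the control mean of 24.1 ± 2.07 CPM, while control 4 lay above 3 of them. The log2 fold change was 0.14 (SE 0.0628, 95% interval −0.01 to 0.29), with an adjusted p of 0.684, and the exact permutation p was 0.114. Without control 4 it was 0.19 with an adjusted p of 0.249, so that UNG then passed, as did 3.91% of all genes. With control 4 and CML 4 both left out it was 0.20 with an adjusted p of 0.360.

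APEX1 was the most precisely measured of the 10 genes, with 3363 to 3911 estimated reads per library. It measured 207, 205, 209 and 214 CPM in controls and 203, 209, 212 and 209 CPM with CML. The means of 209 ± 4.05 and 208 ± 4.19 CPM differed by less than the SD of either group. The log2 fold change of −0.0026 had a 95% interval of −0.050 to 0.045, the narrowest of the set. XRCC1, the scaffold, measured 35.5, 32.0, 35.8 and 34.8 CPM in controls and 35.4, 36.5, 33.8 and 33.1 CPM with CML. Its log2 fold change was 0.0070 (95% interval −0.10 to 0.12, adjusted p 1), with the sign turned under median centring (−0.013) and quantile normalisation (−0.0071).

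PARP1, the sensor of strand breaks, came nearest to the threshold. It measured 91.9, 88.7, 92.2 and 96.9 CPM in controls and 95.2, 101, 99.0 and 101 CPM with CML. CML 2, 3 and 4 lay above every control, and CML 1 lay below control 4 alone. The mean was 92.4 ± 3.38 CPM in controls and 98.9 ± 2.60 CPM with CML, a difference of 7.01% of the control mean. Its log2 fold change was 0.10 (SE 0.0308, 95% interval 0.02 to 0.17), with an unadjusted p of 0.0160 and an adjusted p of 0.489 by limma, and the exact permutation p was 0.0571. After removal of the GC and length trend within each library the value was 0.11 with an adjusted p of 0.0970. In that fit 7.38% of the 12996 genes tested passed. Without control 4 the value was 0.12 with an adjusted p of 0.223. With control 4 and CML 4 both left out it was 0.11 with an adjusted p of 0.338. The estimate was thus between 0.08 and 0.12 under all 20 alternatives, while the adjusted p ran from 0.0970 to 0.731.

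POLB was the only one of the 10 genes whose groups did not overlap. Of all 17649 genes, 442 (2.5%) were separated with CML higher and 225 with CML lower. POLB measured 7.45, 6.92, 7.197 and 7.58 CPM in controls and 9.78, 7.70, 7.98 and 7.78 CPM with CML. CML 1 stood well above the other CML libraries, the lowest of which lay close to the highest control. The mean was 7.29 ± 0.293 CPM in controls and 8.31 ± 0.988 CPM with CML. The log2 fold change was 0.16 (SE 0.0797, 95% interval −0.03 to 0.35) with an adjusted p of 0.725, and 0.09 without CML 1. The exact permutation p of 0.0286 is the smallest that 4 libraries against 4 can give. Such tests were made for all 10 members and for every gene of the other lists described here. With 117 to 169 estimated reads per library, counting alone gives a coefficient of variation of 8.68%. That lies above the 4.03% seen among the controls and below the 11.9% seen with CML.

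**Figure D3:**
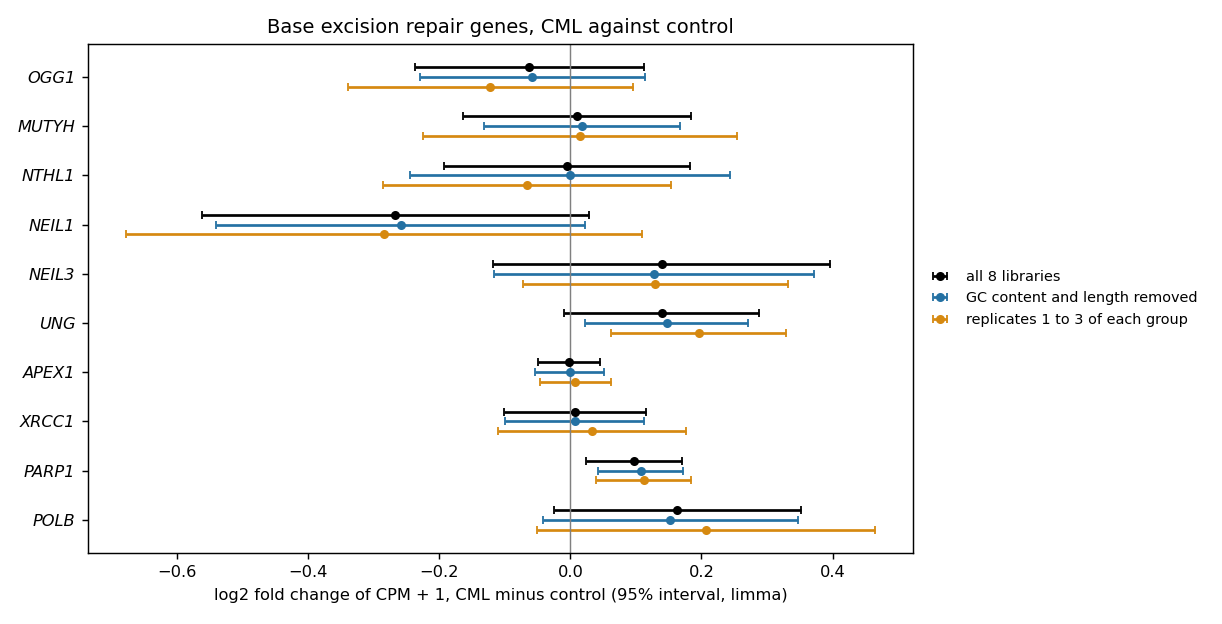
Log2 fold change of CPM + 1 (CML minus control) with limma's 95% interval for the 10 genes, from all 8 libraries, after removal of the GC and length trend, and from replicates 1 to 3 of each group. From all 8 libraries without trend removal, only the interval of PARP1 (0.02 to 0.17) leaves out 0, and NEIL1 has the lowest value (−0.27). In the other fits shown, the intervals of UNG and PARP1 leave out 0.

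Promoter sequences are shown for UNG and PARP1, the members with the smallest p, and for POLE4, the gene of the wider pathway that passed the test. They come from RefSeq on GRCh38.p14, run from 250 bases before to 50 bases after an annotated start, and are written on the strand of the gene. Capitals mark a match to an E2F word (TTTCCCGC, TTTGGCGC, TTTCGCGC or TTTGCCGC on either strand), E2F being the transcription factor family of genes expressed at the start of S phase. UNG has 2 annotated starts and the one with a match is shown (chr12:109097922-109098221, plus strand), beside PARP1 (chr1:226408044-226408343, minus strand) and POLE4 (chr2:74958393-74958692, plus strand).
UNG: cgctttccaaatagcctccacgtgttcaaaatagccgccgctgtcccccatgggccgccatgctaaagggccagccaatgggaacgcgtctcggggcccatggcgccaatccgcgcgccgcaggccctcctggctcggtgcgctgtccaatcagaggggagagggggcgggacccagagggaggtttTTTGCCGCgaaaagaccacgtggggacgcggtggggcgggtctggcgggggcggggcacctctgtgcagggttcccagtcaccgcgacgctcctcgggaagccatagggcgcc
PARP1: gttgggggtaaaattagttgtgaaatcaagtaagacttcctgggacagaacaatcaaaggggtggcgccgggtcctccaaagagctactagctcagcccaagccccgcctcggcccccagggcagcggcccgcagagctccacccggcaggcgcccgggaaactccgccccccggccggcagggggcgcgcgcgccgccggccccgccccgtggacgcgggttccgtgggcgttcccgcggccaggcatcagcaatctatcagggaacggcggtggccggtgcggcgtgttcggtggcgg
POLE4: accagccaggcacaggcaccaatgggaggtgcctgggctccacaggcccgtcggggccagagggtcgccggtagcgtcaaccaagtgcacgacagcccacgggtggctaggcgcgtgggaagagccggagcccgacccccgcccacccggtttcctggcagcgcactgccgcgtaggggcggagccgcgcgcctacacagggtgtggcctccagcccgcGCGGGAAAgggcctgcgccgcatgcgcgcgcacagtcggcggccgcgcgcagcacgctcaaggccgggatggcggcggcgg
The match began 63 bases before the start in UNG and 31 bases before it in POLE4, and PARP1 had none. Of the 14 start sites listed for 9 of the 10 members, 1 held an E2F word, against 3.31% of 35116 promoters of the same length. A CCAAT word was found in 9 of the 14 (34.6% of all promoters) and a GC box, GGGCGG, in 11 of the 14 (45.0%), both strands searched. Some start sites of MUTYH and of NEIL1 have overlapping sequences, so the same GC box was counted again under another start of that gene. These matches describe the letters only. The CPM table gives 1 value per gene, so the starts of UNG could not be measured apart.

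Of the other 37 genes listed for base excision repair, 1 passed limma's test at 0.3 (POLE4), beside 0.895% of all genes. An unadjusted p under 0.05 was found for 6 of the 37, all higher with CML, beside 7.66% of all genes in both directions. In all, 30 were higher and 7 lower, with a median log2 fold change of 0.05 beside 0.0149 over all genes of at least 1 CPM. POLE4, a small histone-fold subunit of DNA polymerase epsilon, rose from 16.6 ± 0.361 to 19.4 ± 1.13 CPM. Its controls lay between 16.2 and 17.1 CPM and its CML libraries between 17.9 and 20.7 CPM, without overlap. The log2 fold change was 0.22 (SE 0.0447) with an adjusted p of 0.269 and an exact permutation p of 0.0286. That call was lost in 12 of 20 alternatives, among them leaving out control 1, 2 or 3 or CML 2, 3 or 4 (adjusted p 0.386 to 0.487), while the log2 fold change stayed between 0.19 and 0.25.

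The other genes of the pathway nearest to the threshold did not pass it with all 8 libraries. APLF, which binds ADP-ribose chains at breaks, measured 10.6 ± 0.461 CPM in controls and 12.4 ± 0.737 CPM with CML, without overlap (log2 fold change 0.20, adjusted p 0.398). POLG, the mitochondrial DNA polymerase, measured 60.6 ± 3.48 and 66.9 ± 2.02 CPM, also without overlap (0.14, adjusted p 0.474). The sliding clamp PCNA measured 32.9 ± 2.43 and 36.99 ± 1.89 CPM (0.17, adjusted p 0.554). APTX, which clears failed ligation ends, had a log2 fold change of 0.09 (adjusted p 0.531) and POLE2, the second subunit of polymerase epsilon, 0.26 (adjusted p 0.626). FEN1, the flap endonuclease, had 0.08 (adjusted p 0.693) and RFC3, of the clamp loader, 0.16 (adjusted p 0.738). Without control 1, POLE2 passed (0.36, adjusted p 0.269), where 91 of 17649 genes passed. Without control 4, APLF passed (0.22, adjusted p 0.282), where 3.91% of all genes passed. With control 4 and CML 4 both left out, none of the 37 passed. Once the GC and length trend was removed, APLF, PCNA, POLE4 and POLG passed at 0.3, that is 4 of 37. In that fit 7.38% of the 12996 genes tested passed. By step, 12 of the 15 long-patch genes were higher and 3 lower (median 0.06), and all 4 end-processing genes were higher (median 0.07). Of all 11 glycosylases in both lists, 7 were higher and 4 lower (median 0.03). The ligases LIG1 (18.5 and 18.6 CPM) and LIG3 (48.8 and 49.5 CPM) and the ADP-ribose enzymes were near 0 on the log2 scale, the latter between −0.08 and 0.07.

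**Figure D4:**
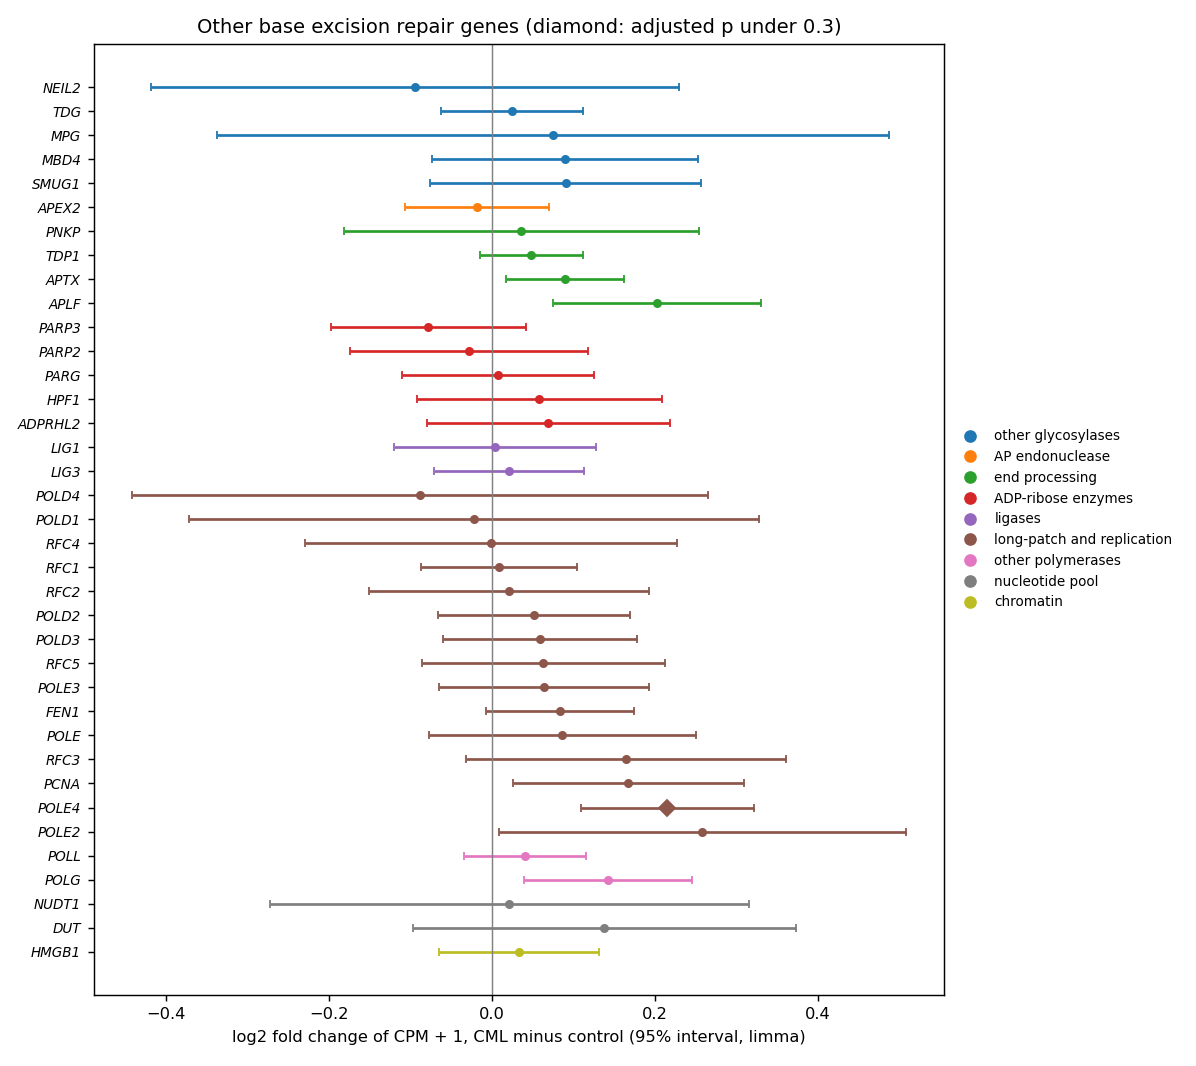
Log2 fold change of CPM + 1 (CML minus control) with limma's 95% interval for the other 37 base excision repair genes, coloured by step. POLE4 (0.22) is the only gene past a false discovery rate of 0.3, and 30 of the 37 points lie to the right of 0.

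Several of these genes are transcribed in S phase, and genes of the cell cycle moved between the same groups. Of 28 S phase genes, 26 were higher with CML, 5 passed at 0.3, beside 0.895% of all genes, and the median log2 fold change was 0.16. The count was 7 without control 4, where 3.91% of all genes passed. It was 1 to 3 without any other single library, where 20 to 105 of all 17649 genes passed. Without control 2, CML 2 or CML 3 it was 1, where 45, 20 and 44 of all genes passed. CDC45, a part of the replicative helicase, rose by 0.43 (adjusted p 0.0856), TYMS, which makes thymidylate, by 0.35 (adjusted p 0.0980) and UHRF1, which reads methylated DNA at replication, by 0.31 (adjusted p 0.183). Of 20 G2/M genes, all 20 were higher, with a median of 0.24, and 8 passed, beside 0.895% of all genes. That count was 4 without control 2, 2 without CML 2 and 3 without CML 3, where 45, 20 and 44 of all 17649 genes passed. It was 15 without control 4, where 3.91% of all genes passed. UBE2C, of the anaphase-promoting machinery, rose by 0.27, MKI67, the proliferation marker, by 0.30 and cyclin B1 (CCNB1) by 0.28, with adjusted p of 0.0856, 0.0856 and 0.0889. The summed S phase level was 684 to 701 CPM in controls and 750 to 766 CPM with CML. For G2/M it was 1038 to 1150 CPM and 1263 to 1315 CPM. Their part in the values of UNG, PARP1, POLB and the replication genes was not tested, and a different share of cycling cells cannot be told apart from a different RNA content per cell in such bulk samples.

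The 3 genes whose log2 levels over the 8 libraries were most like PARP1, among 10769 genes with at least 5 CPM, were PBK (Pearson's r 0.983), GTF2H2 (0.974) and CENPK (0.973). For UNG they were GPAT3 (0.972), ANP32B (0.965) and COMMD2 (0.957). The 8 libraries differed in depth and GC bias, and the genes were picked as the highest of many, so the values are descriptions. None of these 6 genes passed limma's test.

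Oxidative stress produces the bases that OGG1, NTHL1 and the NEIL enzymes remove, and the 8-oxoguanine opposite which MUTYH removes adenine. Its response genes are therefore given beside them. Of 16 such genes, 11 were higher and 5 lower with CML and none passed limma's test at 0.3. Without control 4, 3 passed (2 of them higher), where 3.91% of all genes passed. At an unadjusted p of 0.05 with all 8 libraries, 5 passed with higher and 1 with lower values, beside 7.66% of all genes. The median log2 fold change of the 16 genes was 0.03. SOD2, the mitochondrial superoxide dismutase, measured 814 ± 12.7 CPM in controls and 858 ± 15.4 CPM with CML (0.08, adjusted p 0.381). FTH1, the ferritin heavy chain, measured 1634 ± 17.1 and 1555 ± 15.4 CPM (−0.07, adjusted p 0.397). NQO1, a quinone reductase, measured 50.6 ± 1.72 and 55.8 ± 2.55 CPM (0.14, adjusted p 0.423).

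The genes lie on several chromosomes (GRCh38.p14 coordinates from RefSeq) and 6 of them share annotated bases with another gene of the table. These are MUTYH (chr1:45329242-45340440, with TOE1), OGG1 (chr3:9749952-9791070, with CAMK1 and TADA3), UNG (chr12:109097597-109110992, with ACACB), APEX1 (chr14:20455226-20457767, with PIP4P1), NEIL1 (chr15:75347039-75357115, with MAN2C1) and XRCC1 (chr19:43543311-43575527, with PINLYP and a long noncoding RNA). All of these neighbours lie on the opposite strand except ACACB. PARP1 (chr1:226360691-226408093), NEIL3 (chr4:177309874-177371268), NTHL1 (chr16:2039820-2047834) and POLB had no such neighbour in the table. Whether reads were counted by strand is not given in the sources used here. Without strand, reads from bases shared with a neighbour on the opposite strand cannot be told apart. For UNG and ACACB, on the same strand, knowing the strand would not separate them. The overlaps span whole genes with introns, and whether counted reads fall in the shared bases was not tested. The neighbour of NEIL1, MAN2C1, measured 34.6 ± 2.93 CPM in controls and 32.0 ± 1.77 CPM with CML, far above the 2.79 and 2.16 CPM of NEIL1. TOE1, beside MUTYH, had a log2 fold change of 0.20 (adjusted p 0.489), and ACACB, beside UNG, was low at 2.68 and 2.58 CPM.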

How the data were processed

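RNA-Seq of 4 control and 4 CML libraries of MDA-MB-231 cells was analysed. The authors deposited normalized CPM values, 1 column per library, and the submitters' processing notes name edgeR and hg38. For the tumors, under a heading that also covers cultured cells, the study's methods describe Tophat alignment to hg19 with Ensembl annotation. They name no aligner, build or annotation for the CML libraries themselves, so it is not settled which were used. A NextSeq appears in one label field and a HiSeq in another. Columns summed to 986730 to 1014124, and 86.4% to 88.1% of values were whole multiples of 1 read (tolerance 0.1 read), so no count test was run.

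From the 17681 deposited rows, those of the same symbol were averaged (32 symbols), which left 17649 genes. Groups were taken from the sample titles and compared on log2(CPM + 1) by limma 3.58.1 (R 4.3.3), using a variance trend and Benjamini-Hochberg adjustment over all genes. Fold changes are on that scale, which understates changes of low genes. Single genes were also compared by a 2-sided exact permutation test of mean CPM over 70 labellings (SciPy 1.17.1, smallest p 0.0286). The limma fit, but not the permutation test, was checked on simulated reads. These were drawn without GC or length trends, so the check does not cover such differences between libraries. The members, lists and tests were chosen with earlier results of these data known.

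Named genes were all members, genes of the wider pathway that passed or had the 8 smallest p, the 3 smallest p of each other list, the 3 genes most like PARP1 and UNG, and overlapping neighbours. LIG1 and LIG3 were named after their values were seen, as were the markers of other cell types. Overlaps and transcript lengths came from GENCODE on GRCh37, and no coordinate of that build is printed. They were matched by Ensembl gene identifier, or for transcript lengths by symbol where no identifier matched. The symbol ADPRS was matched to ADPRHL2. Alternatives were a pseudocount of 0.1, 2 filters on low values, rows kept separate, median centring, quantile normalization, limma without the trend, no variance moderation, removal of GC and length trends within libraries, a replicate block, the block with GC and length removal, each library left out, and exon unions as the length. Leaving out control 4 and CML 4 together was chosen after seeing the data.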

Additional observations from a re-analysis of the deposited data

Results flagged for a closer look

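MUTYH, NEIL3 and POLB each had 1 library far from the other 3 of its group by Dixon's test at the 95% level, as had the depth of 1 library. Among the controls, MUTYH measured 18.5 CPM in control 3, above the 15.7 to 16.0 CPM of the others. With CML, NEIL3 measured 4.48 CPM in CML 4 against 3.42 to 3.53 CPM in the others, and POLB measured 9.78 CPM in CML 1 against 7.70 to 7.98 CPM. Control 4, with 17729309 estimated reads, was deeper than the other controls (16559658 to 16690260). Of 24 groups of 4 looked at, 4 stood out in this way, where chance gives 1.2.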

How the results depend on the processing

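At a false discovery rate of 0.3, the 158 of 17649 genes became 73 under median centring and 84 without moderation. They became 321 with control 4 and CML 4 left out (chosen after seeing the data). With GC and length trends removed, only 12996 genes were tested, of which 959 passed, or 1047 with the block added. Leaving out control 1, 2, 3 or 4 gave 91, 45, 72 or 690, and CML 1, 2, 3 or 4 gave 76, 20, 44 or 105. Of the 10 members, 1 passed (PARP1) with GC and length removed, 2 (PARP1 and UNG) with the block added, and 0 to 2 with a library left out, the 2 without control 4. Of the other 37 repair genes, 0 passed under either filter, median centring, no moderation, the replicate block or libraries 1 to 3, 4 with GC and length removed with or without the block, and 0 to 2 with a library left out. The 5 S phase genes became 2 under median centring and the block, 3 under quantile normalization and no moderation, 10 of 27 tested with GC and length removed (9 with the block), and 1 to 7 with a library left out. The 8 G2/M genes became 18 with that removal, with or without the block, and 2 to 15 with a library left out. The count of 0 oxidative stress genes became 1 under quantile normalization, without the trend, without moderation, under the replicate block and in libraries 1 to 3, 3 with GC and length removed (4 with the block), and 0 to 3 with a library left out.

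Signs turned only in members near 0. The log2 fold change of MUTYH became −0.0092 under median centring and −0.0035 under quantile normalization, and XRCC1 −0.013 and −0.0071. APEX1 became 0.0078 in libraries 1 to 3. With a library left out, MUTYH ran from −0.0253 to 0.0629, NTHL1 from −0.0549 to 0.0494, XRCC1 from −0.0282 to 0.0284 and APEX1 from −0.0122 to 0.0110. OGG1, NEIL1, NEIL3, UNG, PARP1 and POLB kept their sign in all 20 alternatives. The causes of these differences were not tested.

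Deviations of same-numbered libraries were correlated at 0.199, −0.0303, −0.0645 and 0.334 for replicates 1 to 4. Between libraries of different numbers the values ran from −0.304 (control 1 with CML 4) to 0.113 (control 1 with CML 3). The values for replicates 1 and 4 were thus the highest of all pairs, and those for 2 and 3 were near 0. Whether the numbers mark paired cultures was not tested. With the replicate block alone, no member passed and all genes gave 189 calls. The 95% intervals of NEIL1 (−0.43 to −0.10) and PARP1 (0.02 to 0.18) then left out 0. NEIL1 had an unadjusted p of 0.0110 and an adjusted p of 0.377 by limma in that fit. The depth behind a value was lowest for NEIL1, NEIL3 and NTHL1, with at most 56, 72 and 85 estimated reads per library, and its part in the width of their intervals was not tested.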
